A study of Drosophila melanogaster with 4 samples.

Results

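Reads of 25 nt or more were examined in 4 lists of small RNAs recovered with Ago1 or Ago2, the Argonaute proteins of adult flies. The set is every listed sequence of at least 25 nt, with its read count, and holds 1027 of the 7181 distinct sequences. All flies were whole males of Drosophila melanogaster with the genotype FLAG-HA-Ago2, raised at 25 °C, so the Ago1 libraries also come from flies with tagged Ago2. For Ago1 an antibody against the protein (ab5070) was used, and for Ago2 anti-FLAG M2 beads that bind its tag, at 3 d and at 30 d of age, which gives 4 groups of 1 library each. The protein and the reagent used to pull it down cannot be told apart, and a difference between any pair of libraries has no replicate check, so no test was made. Intervals are 95% and cover counting error only, since copies made by PCR were not separated from molecules.

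Most fly microRNAs (miRNAs) are cut from hairpins by Drosha and Dicer-1 as short duplexes, of which 1 strand, the 5p or the 3p arm, stays in an Argonaute protein. Ago1 holds most miRNA guide strands, and Ago2 mainly holds small interfering RNAs and a smaller group of miRNA strands. Many fly guides in Ago1 are made longer than their final form and are then shortened from the 3' end by the exonuclease Nibbler, while small RNAs in Ago2 carry a methyl group at their 3' end that protects it. Longer small RNAs of animals also include Piwi-interacting RNAs (piRNAs), which bind other proteins of the Argonaute family.

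The listed sequences were joined into 585 arms, each around its most abundant form, and 250 arms held at least 1 sequence of 25 nt or more. Names were given from recalled mature sequences, and for miR-284-5p, miR-314-5p, miR-962-5p, miR-1016-5p, miR-263a-3p and miR-305-3p with the pairing to the other strand or the annotated length in view, so they come from background knowledge, not from the lists. For miR-284-5p the other strand, miR-284-3p, gave the best pairing of 312 arms compared, at -23.5 kcal/mol against -16.5 kcal/mol for the next arm. miR-314-3p ranked 4 among the 312 for the arm named miR-314-5p, and miR-263a-5p ranked 4 for the arm named miR-263a-3p, so that the pairing does not single out these partners. The sequences below are the forms on which the results turn, written 5' to 3' with T for U, each from an arm whose hairpin is annotated on 2L, 3L or 3R. For miR-284-5p, miR-962-5p and miR-263a-5p capitals mark the bases past position 24. For the other arms the first sequence is the shorter form with the highest mean RPM over the 4 libraries, and capitals mark the bases that the longer form adds to it. In miR-125-5p the 22-nt form had more reads than this 21-nt form in both Ago1 libraries and with Ago2 at 3 d.
miR-284-5p, 24 nt: cctggaattaagttgactgtgtag
miR-284-5p, 25 nt: cctggaattaagttgactgtgtagC
miR-284-5p, 26 nt: cctggaattaagttgactgtgtagCC
miR-284-5p, 27 nt: cctggaattaagttgactgtgtagCCT
miR-962-5p, 25 nt: ataaggtagagaaattgatgctgtC
miR-263a-5p, 24 nt: aatggcactggaagaattcacggg
miR-263a-5p, 26 nt: aatggcactggaagaattcacgggGT
miR-125-5p, 21 nt: tccctgagaccctaacttgtg
miR-125-5p, 25 nt: tccctgagaccctaacttgtgACTT
miR-125-5p, 27 nt: tccctgagaccctaacttgtgACTTTT
miR-10-5p, 22 nt: accctgtagatccgaatttgtt
miR-10-5p, 26 nt: accctgtagatccgaatttgttTTAT
miR-33-5p, 21 nt: gtgcattgtagtcgcattgtc
miR-33-5p, 27 nt: gtgcattgtagtcgcattgtcTGTCCC
miR-263a-3p, 22 nt: cgtgatctcttagtggcatcta
miR-263a-3p, 26 nt: AACCcgtgatctcttagtggcatcta

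Reads of 25 nt or more were a minor class with both proteins and a larger one in the Ago2 libraries. They made up 0.264% (0.262 to 0.266) of the listed reads with Ago1 at 3 d and 0.183% (0.181 to 0.184) at 30 d. With Ago2 they made up 4.16% (4.15 to 4.17) at 3 d and 3.02% (3.01 to 3.02) at 30 d. The listed reads behind these shares numbered 26636441 and 26451651 with Ago1 and 13491805 and 34554191 with Ago2, at 3 d and 30 d. In reads per 1000000 listed reads (RPM), the long reads came to 2642 and 1825 with Ago1 against 41562 and 30169 with Ago2. As a log2 ratio, Ago2 over Ago1 was 3.98 (3.96 to 3.99) at 3 d and 4.05 (4.03 to 4.06) at 30 d. From 3 d to 30 d it was -0.53 (-0.55 to -0.52) in the Ago1 pair and -0.46 (-0.47 to -0.46) in the Ago2 pair, so both proteins had a lower share of long reads in the older flies.

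Just below the limit the order was the same but the class was far larger, and the order rested on a single sequence. Reads of 24 nt made up 4.45% and 3.23% of the Ago1 libraries and 45.3% and 47.8% of the Ago2 libraries. With Ago2 the 24-nt form of miR-263a-5p held 451680 of 453233 RPM at 3 d and 476500 of 478225 RPM at 30 d. With Ago1 it held 34385 of 44470 RPM and 23016 of 32326 RPM. The other reads of 24 nt were thus higher in RPM with Ago1 than with Ago2 at both ages. Reads of 25 nt then made up 0.158% and 0.127% with Ago1 against 1.63% and 1.73% with Ago2. The step from 24 nt to 25 nt was therefore a drop in all 4 libraries, as the plot of RPM by read length shows.

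**Figure D1:**
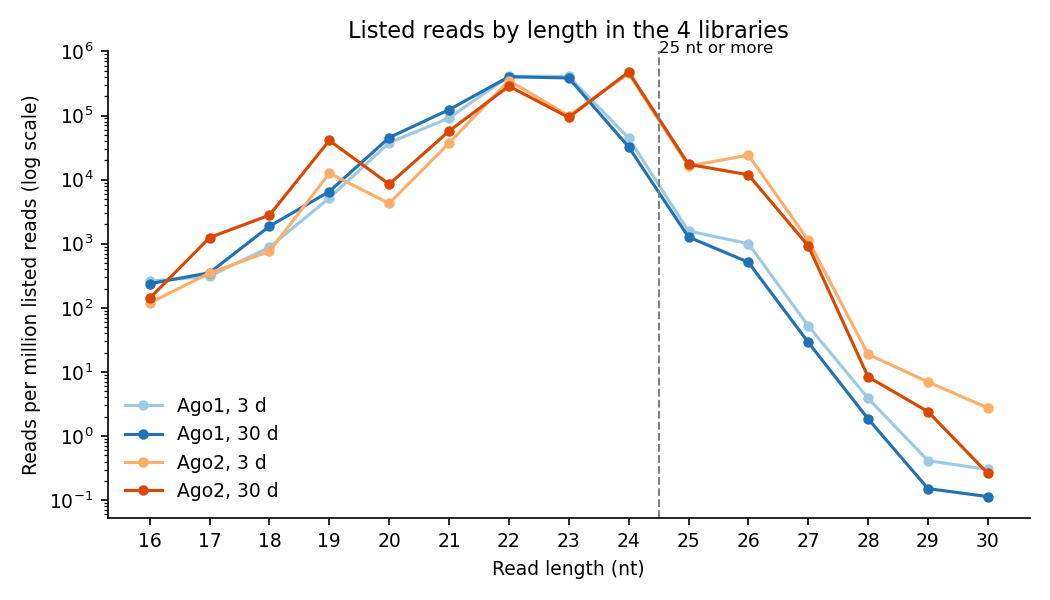
Reads per 1000000 listed reads (log scale) at each read length from 16 to 30 nt in the 4 libraries, 1 point per library and length, with a dashed line at the limit of 25 nt. Both Ago2 libraries lie above both Ago1 libraries at 25, 26, 27 and 28 nt.

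By number of sequences the libraries were closer. There were 399 and 287 distinct long sequences with Ago1 at 3 d and 30 d and 462 and 518 with Ago2. They were 9.33% and 7.42% of all distinct sequences in the Ago1 lists and 15.4% and 12.1% of those of the Ago2 lists. Many rested on 1 read, namely 175 and 102 sequences with Ago1 against 218 and 179 with Ago2. The number of sequences depends on depth, which was lowest with Ago2 at 3 d. Of the 1027 sequences, 627 were in 1 library only, and 76 were in all 4 libraries. Those 76 held 99.4% of all long reads.

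A single arm, miR-284-5p, supplied nearly all long reads of the Ago2 libraries. In flies miR-284 is known for its effect on glutamate receptors at synapses. Its hairpin lies on 3R, and its 5p arm is 1 of 15 annotated fly arms (of 485) with a mature length of 25 nt or more. Its forms of 25 nt or more stood at 842 RPM with Ago1 at 3 d, 350 RPM with Ago1 at 30 d, 40643 RPM with Ago2 at 3 d and 29389 RPM with Ago2 at 30 d. They were 97.8% and 97.4% of the long reads with Ago2, and 31.9% and 19.2% of those with Ago1. As a log2 ratio, Ago2 over Ago1 was 5.59 (5.57 to 5.61) at 3 d and 6.39 (6.36 to 6.42) at 30 d, and both Ago2 libraries lay far above both Ago1 libraries. With age the log2 ratio was -1.26 (-1.30 to -1.23) in the Ago1 pair and -0.47 (-0.47 to -0.46) in the Ago2 pair.

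Without miR-284-5p the order of the proteins was the reverse. The remaining long reads came to 1801 and 1475 RPM with Ago1 against 919 and 781 RPM with Ago2. The log2 ratio of Ago2 over Ago1 became -0.97 (-0.999 to -0.94) at 3 d and -0.92 (-0.94 to -0.89) at 30 d. The change with age kept its direction, at -0.29 (-0.31 to -0.27) in the Ago1 pair and -0.23 (-0.27 to -0.20) in the Ago2 pair. Leaving out only the 26-nt form of miR-284-5p, the most abundant long sequence, gave 2.84 and 3.41 for Ago2 over Ago1 at 3 d and 30 d. The age ratio with Ago2 then changed sign, to 0.07. The reverse order without miR-284-5p rested on another arm, called unnamed arm 1 below. This arm held 1146 and 1006 RPM of the remaining long reads with Ago1 at 3 d and 30 d. With Ago2 it held 36.0 and 77.6 RPM, and ratios without both arms were not computed.

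**Figure D2:**
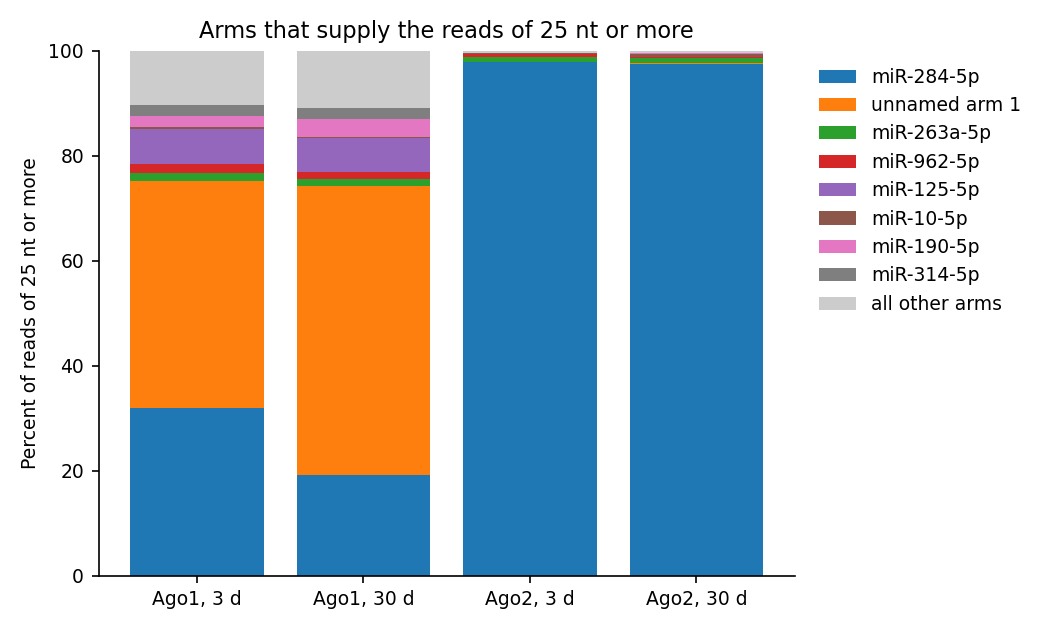
Percent of the reads of 25 nt or more that belong to each of 8 arms and to all other arms, 1 stacked bar per library. miR-284-5p fills 97.8% and 97.4% of the Ago2 bars, and unnamed arm 1 takes the largest part of both Ago1 bars, at 43.4% and 55.1%.

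The long reads of the Ago1 libraries were led by an arm that could not be named, called unnamed arm 1 here, whose most abundant form by mean RPM is 25 nt long. Its sequence is not shown, because the chromosome of its origin is not known here. Its forms of 25 nt or more stood at 1146 and 1006 RPM with Ago1 at 3 d and 30 d and at 36.0 and 77.6 RPM with Ago2. They made up 43.4% and 55.1% of the long reads with Ago1. As a log2 ratio, Ago2 over Ago1 was -4.99 (-5.12 to -4.86) at 3 d and -3.70 (-3.75 to -3.64) at 30 d, so this arm lay on the other side from miR-284-5p at both ages. With age it was -0.19 (-0.21 to -0.16) in the Ago1 pair and 1.11 (0.97 to 1.25) in the Ago2 pair.

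The other arms whose main form is 25 nt or longer were much rarer. There were 47 such arms with the leading pair included, and together they held 80.0% and 79.3% of the long reads with Ago1 and 98.6% and 97.9% with Ago2. miR-962-5p, annotated at 25 nt on 2L, had long forms at 47.8 and 24.65 RPM with Ago1 and 257 and 69.1 RPM with Ago2, at 3 d and 30 d. It was higher with Ago2 at both ages, with log2 ratios of 2.43 (2.34 to 2.52) and 1.49 (1.36 to 1.61), and it was lower at 30 d with both proteins, by 0.95 (-1.09 to -0.82 as a log2 ratio) with Ago1 and by 1.90 (-1.97 to -1.82) with Ago2. The arm named miR-314-5p, annotated at 26 nt on 3L, lay the other way, at 52.7 and 38.3 RPM with Ago1 and 21.1 and 6.57 RPM with Ago2. A second unnamed arm led by a form of 27 nt had 15.7 and 23.1 RPM with Ago1 and 0.964 and 1.04 RPM with Ago2. Of the other annotated arms of 25 nt or more, miR-973-5p was found with a main form of 23 nt and no long read, miR-280-5p and miR-289-5p were looked for and not found, and the others were not looked for by name.

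Both leading arms were mixtures of a few lengths with the same start, and the mixture differed between libraries. Of the miR-284-5p reads, the 24-nt form held 15.5% and 25.6% with Ago1 at 3 d and 30 d but 0.484% and 1.33% with Ago2. The 25-nt form held 62.1% and 48.8% with Ago1 against 37.6% and 54.6% with Ago2. The 26-nt form held 16.5% and 15.6% with Ago1 against 57.4% and 37.8% with Ago2. The long forms of this arm were thus a larger share of it in both Ago2 libraries, 97.7% and 95.2%, than in both Ago1 libraries, 78.9% and 65.0%. The 27-nt form had 81 and 47 reads with Ago1 against 13949 and 29065 reads with Ago2, and its log2 ratios of Ago2 over Ago1, 8.41 (8.09 to 8.74) at 3 d and 8.89 (8.48 to 9.33) at 30 d, were above those of every other long sequence with a mean of 10 RPM or more in the pair, ranked with a pseudocount of 1 RPM.

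With age the balance of the 26-nt and the 25-nt form of miR-284-5p moved in opposite directions with the 2 proteins. The 26-nt form was 21.0% (20.4 to 21.5) of both forms with Ago1 at 3 d and 24.3% (23.4 to 25.2) at 30 d. With Ago2 it was 60.5% (60.3 to 60.6) at 3 d and 40.9% (40.8 to 41.04) at 30 d. In RPM the 26-nt form was at 23887.5 with Ago2 at 3 d and at 11667 at 30 d, while the 25-nt form was at 15625 and 16833. Almost all reads of the miR-284 hairpin were of this strand, at 96.9% and 96.2% with Ago1 and 99.99% with Ago2 at both ages.

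In unnamed arm 1 the 26-nt form was the smaller part at 30 d with both proteins. It was 61.3% (60.8 to 61.9) of the forms of 25 and 26 nt with Ago1 at 3 d and 34.1% (33.5 to 34.7) at 30 d. With Ago2 it was 52.5% (48.0 to 56.9) at 3 d and 19.0% (17.5 to 20.5) at 30 d. The 24-nt form of this arm went from 17.95% to 37.3% of its reads with Ago1, and from 9.08% to 11.1% with Ago2. The arm named miR-314-5p had mainly the 26-nt form, with 94.8% and 93.8% of both forms with Ago1 and 83.6% and 70.5% with Ago2. In miR-962-5p the 26-nt form was a small part, with 20.5% and 16.4% with Ago1 and 3.11% and 1.89% with Ago2.

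**Figure D3:**
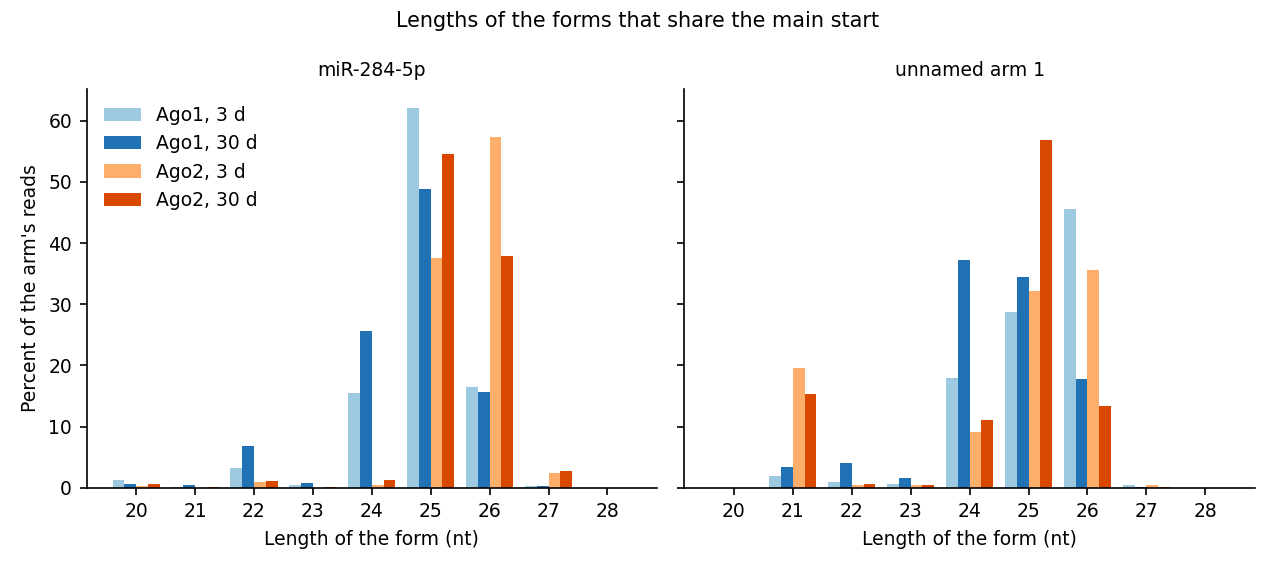
Percent of an arm's reads in forms of 20 to 28 nt that share the main start, for miR-284-5p (left) and unnamed arm 1 (right), 1 bar per library. The 24-nt form of miR-284-5p stands at 15.5% and 25.6% with Ago1 and at 0.484% and 1.33% with Ago2.

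The length profile of the long reads differed between the libraries as well. Reads of 25 nt were 59.9% and 69.7% of the long reads with Ago1 at 3 d and 30 d, and 39.2% and 57.4% with Ago2. Reads of 26 nt were 37.9% and 28.2% with Ago1 against 58.0% and 39.5% with Ago2. Reads of 27 nt held 1.98% and 1.59% with Ago1 and 2.73% and 3.07% with Ago2. With both proteins the share of 26 nt was thus lower and that of 25 nt higher at 30 d. With Ago2 this was turned round when miR-284-5p was left out. Reads of 25 nt were then 63.3% at 3 d and 58.2% at 30 d of the remaining long reads with Ago2, and reads of 26 nt 23.1% and 29.6%. With Ago1 the direction held, with 51.1% and 68.4% at 25 nt and 45.8% and 29.1% at 26 nt. Much of this Ago1 shift was that of unnamed arm 1. Its 25-nt form had 11427 and 17401 reads with Ago1 at 3 d and 30 d, and its 26-nt form 18106 and 9002. Without miR-284-5p, reads of 27 nt were 2.73% and 1.84% of the remaining long reads with Ago1 against 10.8% and 11.0% with Ago2. The distinct sequences were spread more widely, with 42.6% and 49.5% of them at 25 nt with Ago1 and 31.2% and 36.7% with Ago2.

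The first base of the long reads differed between the proteins, and with Ago2 it was that of a single arm. The first base of a small RNA sits in a pocket of the Argonaute protein, and fly Ago1 is known for U and fly Ago2 for C at this position. U began 54.9% and 66.0% of the long reads with Ago1 at 3 d and 30 d, against 0.172% and 0.411% with Ago2. C began 97.8% and 97.5% of the long reads with Ago2, against 32.3% and 19.7% with Ago1. Nearly all of these were miR-284-5p, which starts with C. Without it, C began 2.53% and 2.72% of the long reads with Ago2 and 0.713% and 0.615% with Ago1.

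After miR-284-5p was left out, the long reads with Ago2 mainly began with A, at 81.0% and 74.7%, and those with Ago1 with U, at 80.5% and 81.7%. miR-263a-5p, miR-962-5p and miR-10-5p all begin with A. With Ago1, unnamed arm 1 held 30522 and 26598 of the remaining long reads, more than all those that began with A, C or G. Most of the 38625 and 31858 remaining long reads that began with U with Ago1 were thus of that arm. Reads of 20 to 24 nt had the same order, with U at 75.7% and 74.0% with Ago1 against 37.0% and 28.9% with Ago2, and A at 17.2% and 18.4% with Ago1 and 55.2% and 62.3% with Ago2. Without miR-263a-5p, U began 79.7% and 76.8% of the reads of 20 to 24 nt with Ago1 and 73.9% and 64.5% with Ago2, so at that length the proteins were much closer. Counted by distinct sequence, the long sets lay closer than by reads, with U at 34.6% and 39.7% with Ago1 and 25.3% and 30.7% with Ago2.

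**Figure D4:**
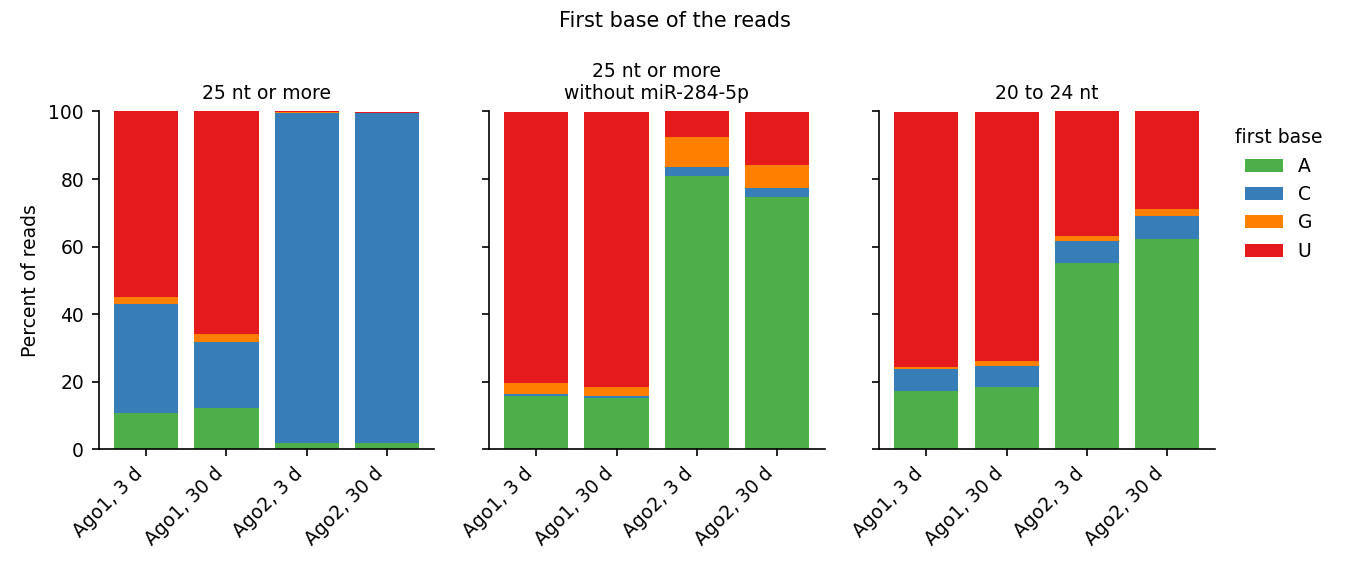
Percent of reads by first base in each library, for reads of 25 nt or more (left), the same without miR-284-5p (middle) and reads of 20 to 24 nt (right). C fills 97.8% and 97.5% of the Ago2 bars on the left and 2.53% and 2.72% in the middle.

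A long sequence was called an extension if it holds whole a more abundant listed sequence of 18 to 24 nt whose mean over the 4 libraries is 10 RPM or more. Of the 1027 sequences, 436 (42.5%) were extensions, 276 of them at the 3' end only, 85 at the 5' end only and 75 at both ends. A further 159 overlapped such a shorter sequence over at least 14 nt without holding it whole, 129 belonged to arms led by a long form and 303 had no such partner. Within a library, extensions made up 50.1% and 58.9% of the distinct long sequences with Ago1 and 51.5% and 46.1% with Ago2.

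By reads, extensions were 20.3% (19.97 to 20.6) and 20.9% (20.5 to 21.2) of the long reads with Ago1 at 3 d and 30 d, and 1.43% (1.40 to 1.47) and 2.02% (1.99 to 2.04) with Ago2. Without miR-284-5p, whose main forms count as led by a long form, the order was the other way. Extensions were then 29.7% and 25.8% of the long reads with Ago1 and 63.4% and 77.2% with Ago2. Unnamed arm 1, also led by a long form, held 30522 of the 47962 remaining long reads with Ago1 at 3 d and 26598 of 39011 at 30 d. With Ago2 it held 486 of 12398 and 2681 of 26982. The lower share of extensions with Ago1 thus rests in large part on this arm, and shares without both arms were not computed. The class of this arm follows from the mean over the 4 libraries. With Ago1 at 30 d its 24-nt form had 18831 reads, against 17401 at 25 nt and 9002 at 26 nt. With the shorter form chosen within that library, these long forms would count as extensions, so the 20.9% depends on this choice. Relative to all listed reads the extensions were close, with 535 and 381 RPM with Ago1 against 596 and 609 RPM with Ago2. Their ratio of Ago2 to Ago1 on the log2 scale was 0.16 (0.12 to 0.19) at 3 d and 0.68 (0.64 to 0.71) at 30 d. With age it was -0.49 (-0.53 to -0.45) in the Ago1 pair and 0.03 (-0.01 to 0.07) in the Ago2 pair, an interval that holds 0.

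Extensions lay mainly at the 3' end. Extensions at the 3' end only held 521 and 370 RPM with Ago1 and 554 and 552 RPM with Ago2. Extensions at the 5' end only held 8.30 and 5.56 RPM with Ago1 against 22.4 and 23.01 RPM with Ago2, and those at both ends 6.27 and 5.44 RPM with Ago1 and 19.9 and 34.2 RPM with Ago2. Both 5' classes were thus rarer than the 3' class in every library, and higher in both Ago2 than in both Ago1 libraries. At the 3' end, 1 added nucleotide was the most frequent addition with Ago2, at 46.9% and 37.7% of these reads, and 4 added nucleotides with Ago1, at 32.6% and 29.1%. Single sequences held most of both classes. With Ago2 the 25-nt form of miR-263a-5p had 3401 of 3507 and 6848 of 7186 reads with 1 added nucleotide. With Ago1 the 25-nt form of miR-125-5p, set against its 21-nt form, had 2401 of 4520 and 1815 of 2844 reads with 4. The 22-nt form of this arm was more abundant with Ago1, at 25897 and 24707 reads against 8260 and 10459 for the 21-nt form. Set against the 22-nt form, the 25-nt form adds 3 nucleotides, so the lead of 4 with Ago1 depends on which form is chosen. The 3' additions to a given shorter sequence mostly shared their bases. For 66 shorter sequences with at least 2 such forms, 242 of 246 forms (98.4%) matched the most abundant form in every added base that both hold, and these held 99.7% of the reads. Whether the added bases match the hairpin was not tested, since no genome was used here.

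The members differed in which protein held their long forms. miR-263a-5p, which protects sensory bristles from cell death, is the most abundant miRNA of the Ago2 libraries. Its forms of 25 nt or more stood at 37.5 and 24.65 RPM with Ago1 and at 376.5 and 272 RPM with Ago2, at 3 d and 30 d. They were 0.0743% (0.0698 to 0.0790) and 0.0665% (0.0616 to 0.0718) of the reads of the arm with Ago1, and 0.0778% (0.0757 to 0.0800) and 0.0495% (0.0485 to 0.0505) with Ago2. The higher RPM with Ago2 thus came with a similar share of the arm at 3 d, and with a lower share at 30 d. Its forms of 26 to 28 nt stood apart from the 25-nt form, which had 968 and 625 reads with Ago1 and 3401 and 6848 with Ago2. The 26-nt form had 19 and 10 reads with Ago1 and 1290 and 2011 reads with Ago2. At 27 nt there were 0 and 2 reads with Ago1 against 214 and 347 with Ago2, and at 28 nt 0 and 0 against 79 and 46.

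miR-125-5p, a miRNA of the let-7 complex, showed the opposite. Its long forms stood at 178 and 117 RPM with Ago1 against 8.45 and 15.3 RPM with Ago2. They were 9.65% (9.40 to 9.92) and 5.88% (5.68 to 6.09) of the arm with Ago1, against 0.213% (0.177 to 0.255) and 0.195% (0.179 to 0.212) with Ago2. The log2 ratio of RPM was -4.39 (-4.68 to -4.13) at 3 d and -2.94 (-3.08 to -2.81) at 30 d. The 25-nt form had 2401 and 1815 reads with Ago1 and 42 and 244 reads with Ago2, although the arm itself had more reads with Ago2 than with Ago1, at 53614 and 270716 against 49032 and 52812.

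miR-10-5p, from the Hox gene cluster, had long forms mainly with Ago2. They stood at 6.42 and 2.31 RPM with Ago1 and at 56.9 and 183 RPM with Ago2. As shares of the arm they were 0.0322% (0.0277 to 0.0374) and 0.00855% (0.00666 to 0.0110) with Ago1 against 0.142% (0.132 to 0.153) and 0.309% (0.302 to 0.317) with Ago2. From 3 d to 30 d the share was thus lower with Ago1 and higher with Ago2. With Ago2 the long forms were a peak of their own, separate from the main form of 22 nt. The 24-nt form had 58 and 364 reads, the 25-nt form 69 and 1307, and the 26-nt form 409 and 3613, and the 27-nt form had 1268 reads at 30 d. A smaller rise at 26 nt was also there with Ago1, with 150 and 29 reads at 3 d and 30 d. The 25-nt form had 7 and 11 reads with Ago1 and the 27-nt form 2 and 1.

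miR-33-5p, whose host gene encodes a regulator of lipid genes, had such a separate peak at 27 nt. With Ago2 its 24-nt form had 5 and 26 reads and its 27-nt form 458 and 690. With Ago1 the 27-nt form had 6 and 4 reads, although the main form of 21 nt had 89360 and 219760 reads with Ago1 against 44571 and 242245 with Ago2. The long forms were 1.16% and 0.374% of the arm with Ago2 and 0.00818% and 0.00238% with Ago1. The log2 ratio of their RPM was 7.08 (6.09 to 8.30) at 3 d and 6.94 (5.81 to 8.39) at 30 d.

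The long forms of miR-263a-3p, the strand opposite to miR-263a-5p, carried 11.6% (10.3 to 13.0) and 13.3% (12.6 to 14.02) of the arm with Ago2. With Ago1 there were 2 reads among 972 at 3 d and 1 among 979 at 30 d. The form that adds AACC at the 5' end of the main form had 27 and 78 reads with Ago2, and a form of 25 nt with the same start that ends 1 nt earlier had 57 and 581. Among arms mainly found with Ago1, miR-190-5p had a long share that differed less between the proteins, at 4.43% and 4.84% with Ago1 and 5.81% and 5.37% with Ago2. miR-305-5p, which shares a cluster with miR-275, had 6.50% and 3.08% with Ago1 and 4.05% and 3.12% with Ago2. Among reads of 20 nt or more of miR-305-5p, the long share at 30 d was 3.26% (3.02 to 3.53) in the Ago1 library and 4.52% (3.83 to 5.33) in the Ago2 library.

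Over all arms with 1000 reads or more in each library of a pair, the share of reads of 25 nt or more was compared within each arm. Whether any long read is seen in an arm still depends on how many reads the arm has. This comparison and its limit, and the arms named from it, were chosen after values had been seen. At 3 d the share was higher with Ago2 in 31 of 58 arms (53.4%) and lower in 18 (31%), and 9 arms had no long read in either library. Of these, 4 higher and 7 lower arms rested on 3 or fewer long reads in the pair. The intervals lay apart in 22 higher arms (37.9%) and 5 lower arms (8.62%). At 30 d it was higher in 37 of 73 arms (50.7%) and lower in 15 (20.5%), with intervals apart in 19 (26%) and 4 (5.48%), and 7 higher and 5 lower arms rested on 3 or fewer long reads. The median long share of an arm was 0.0330% with Ago2 and 0.00781% with Ago1 at 3 d, and 0.00368% and 0.00128% at 30 d. let-7-5p, a miRNA of developmental timing from the same complex as miR-125-5p, had 5 and 2 long reads among 623377 and 557659 with Ago1 and 12 and 30 among 13234 and 73614 with Ago2. Its share was thus higher with Ago2 at both ages, while that of miR-125-5p was lower at both.

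**Figure D5:**
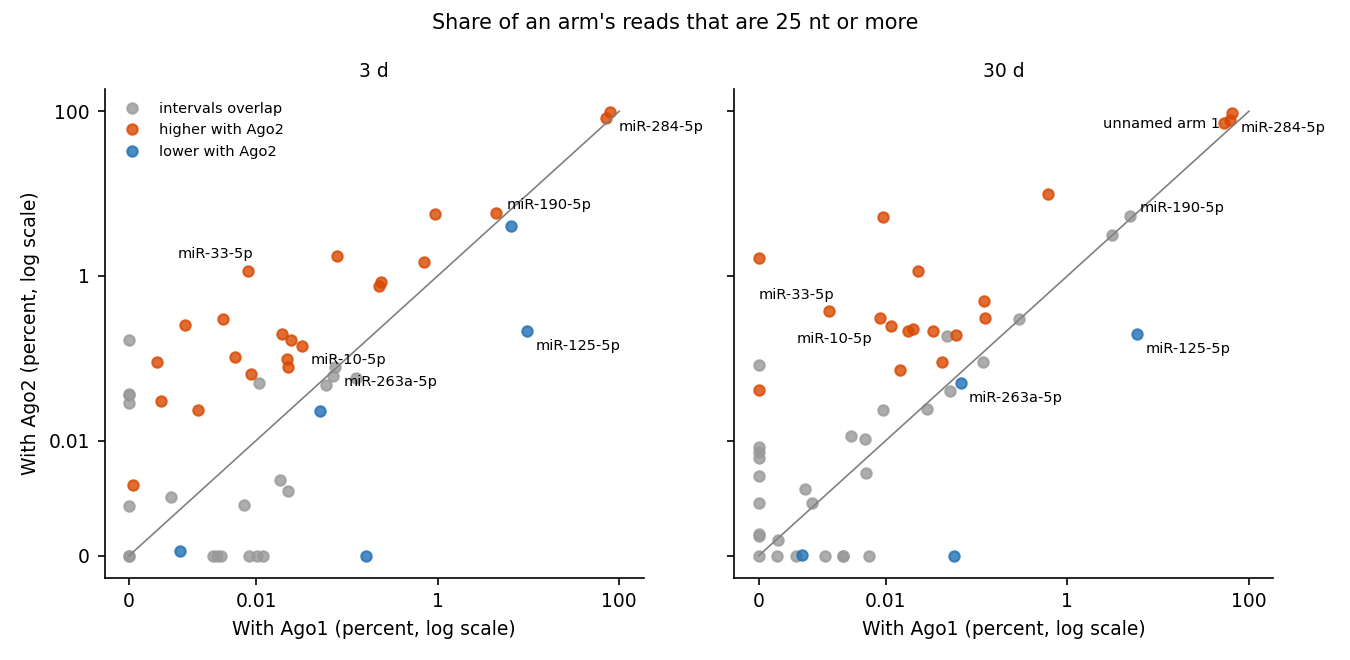
Percent of an arm's reads that are 25 nt or more, with Ago1 on the horizontal and Ago2 on the vertical axis (both log scales, values of 0 and near 0 drawn at the edge), at 3 d (left) and 30 d (right), 1 point per arm with at least 1000 reads in both libraries and a long read in at least 1. Coloured points, 22 above and 5 below the line at 3 d and 19 and 4 at 30 d, have 95% intervals that lie apart.

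With age the long share of an arm was more often lower than higher. With Ago1 it was lower at 30 d in 51 of 98 arms (52%) and higher in 21 (21.4%), and the intervals lay apart in 15 lower (15.3%) and 5 higher arms (5.1%). With Ago2 it was lower in 32 of 69 arms (46.4%) and higher in 20 (29%), with intervals apart in 8 (11.6%) and 3 (4.35%). Of the arms with Ago1, 12 lower and 6 higher rested on 3 or fewer long reads, and of those with Ago2, 6 lower and 5 higher. miR-34-5p, a miRNA known for its role in fly ageing and a substrate of Nibbler, was lower in share with both proteins, but with Ago2 the intervals overlapped when short forms were left out. Its long share was 0.703% (0.644 to 0.768) at 3 d and 0.122% (0.105 to 0.143) at 30 d with Ago1, and 1.48% (0.949 to 2.30) and 0.305% (0.236 to 0.394) with Ago2. In RPM the long forms went from 18.2 to 6.01 with Ago1 and from 1.41 to 1.68 with Ago2. The 18-nt form of the arm went from 0.625% to 12.3% of its reads with Ago1 and from 31.4% to 81.0% with Ago2. Among its reads of 20 nt or more, the long share was 0.714% (0.653 to 0.780) and 0.142% (0.122 to 0.166) with Ago1, and 2.24% (1.44 to 3.47) and 1.76% (1.36 to 2.27) with Ago2, where the intervals overlap. miR-281-2-5p went the other way with Ago1, with long forms from 17.6 to 42.3 RPM.

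Single long sequences were then compared between libraries, over those with a mean of 1 RPM or more in the pair, with a pseudocount of 1 RPM and a limit of 2-fold. For Ago2 against Ago1 at 3 d, 29 of 58 sequences (50%) were at least 2-fold higher, against 25.4% of all listed sequences, and 25 (43.1%) were at least 2-fold lower, against 57.6%. At 30 d, 28 of 59 (47.5%) were higher, against 30.6%, and 27 (45.8%) were lower, against 51.4%. With age and Ago1, 2 of 42 (4.76%) were higher, against 9.56%, and 12 (28.6%) were lower, against 11.6%. With age and Ago2, 7 of 51 (13.7%) were higher, against 25.7%, and 11 (21.6%) were lower, against 6.45%. Without miR-284-5p, 22 of 51 were higher and 25 lower at 3 d, and 23 and 27 of 54 at 30 d. The lower sequences were then the more numerous at both ages, as they were over all listed sequences. There 57.6% were lower and 25.4% higher at 3 d, and 51.4% and 30.6% at 30 d. With age and without this arm, 2 were higher and 10 lower of 39 with Ago1, and 7 were higher and 7 lower of 42 with Ago2. Members of 1 arm share most of their sequence, so these counts are not of independent items. The median log2 ratio of Ago2 over Ago1 over these long sequences was 1.08 at 3 d and -0.37 at 30 d, against -1.63 and -1.16 over all listed sequences. With age the median was -0.52 in the Ago1 pair, against -0.05 over all listed sequences, and -0.12 in the Ago2 pair, against 0.39.

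Among sequences with a mean of 10 RPM or more, the ends of each comparison were taken by few arms. For Ago2 over Ago1 the high end held forms of miR-284-5p, miR-263a-5p, miR-33-5p and miR-10-5p, and the low end forms of unnamed arm 1, miR-311-3p, miR-125-5p, miR-281-2-5p and miR-314-5p. The 25-nt form of miR-311-3p, an arm of the miR-310 cluster, had 1025 reads with Ago1 and 9 with Ago2 at 3 d, a log2 ratio of -5.85 (-6.98 to -4.92) without a pseudocount. With age and Ago2 the highest was the 25-nt form of miR-10-5p, from 69 to 1307 reads at 2.89 (2.54 to 3.26), and the lowest was the 25-nt form of miR-962-5p, from 3361 to 2341 reads in the deeper library at -1.88 (-1.96 to -1.80). With age and Ago1 the highest was the 25-nt form of miR-281-2-5p at 1.39 (1.22 to 1.56).

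Lists of arms known from background were looked at for long reads, which 250 of all 585 arms (42.7%) had, 49 of them a single read. Of 8 arms recalled as trimmed by Nibbler, 7 were found and 6 had a long read, namely miR-34-5p, miR-263a-5p, miR-305-5p and miR-10-5p above, miR-317-3p and miR-11-3p. miR-317-3p had 0.0563% and 0.0328% with Ago1, no long read among 695 with Ago2 at 3 d (interval up to 0.550%) and 3 among 1413 at 30 d. miR-11-3p had 1 long read in the 4 libraries, among 63279 with Ago2 at 3 d. Of 6 mirtron arms, which are cut from short introns by splicing instead of by Drosha, all were found and 2 had long reads, a share near that of all arms. These were miR-1003-3p, with at most 2.13% of its reads in a library, and miR-1010-3p, with 3 long reads among 1010 with Ago2 at 3 d.

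Reads of 29 nt or more were rare, with 84 and 202 reads with Ago1 against 264 and 139 with Ago2, and the longest sequence of a library had 40 to 44 nt. Of these, forms of miR-284-5p were 8 and 15 reads with Ago1 and 132 and 54 with Ago2, up to 42 nt long. Some sequences of 26 to 30 nt, the length range of piRNAs, had neither a shorter partner as defined above nor a long-led arm. Shorter forms with a mean below 10 RPM did not count as partners. Such sequences numbered 44 and 16 with Ago1 against 73 and 80 with Ago2. They held 65 and 25 reads with Ago1 against 159 and 238 with Ago2. U began 7, 6, 19 and 21 of these sequences and A stood at position 10 in 6, 3, 21 and 15 of them, for Ago1 at 3 d, Ago1 at 30 d, Ago2 at 3 d and Ago2 at 30 d in turn. As shares, U at the first position held 15.9%, 37.5%, 26.03% and 26.25% of them, beside 34.6%, 39.7%, 25.3% and 30.7% of all long sequences. A at position 10 held 13.6%, 18.75%, 28.8% and 18.75%, beside 32.1%, 32.4%, 31.4% and 27.4% of all long sequences, so neither feature stood above the whole set by more than 1 percentage point.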

How the data were processed

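Small RNAs from 4 immunoprecipitates, 1 library per protein and age, were read as deposited by the authors, as lists of distinct sequences with raw read counts that were not normalized. Per the submitters' processing notes, the tools were CASAVA 1.8.2 and Bowtie, with the build dm3. The Bowtie version, adapter trimming, alignment settings and filters are not given in the sources used, and they decide which long reads are listed. Sequences repeated in a list, at most 3 long ones in a library, always had equal counts and were counted once. RPM is per 1000000 listed reads, and all ratios are relative to the other listed reads of a library.

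The members and lists were chosen with earlier results of these data known. Arms were joined greedily, the most abundant sequence first, over at least 14 nt. Of 49 names, recalled as the first 9 or more bases of a mature form and in part fitted to the observed main form after the files had been read, 46 matched an arm. All 46 had an annotated arm in BDGP6, 27 of the same length and 37 within 1 nt, which is no independent check where the length helped to choose the name. Only the chromosome arm was taken from this annotation, whose build differs from dm3. Grouping into arms, shares within arms, pairing (RNAduplex of ViennaRNA 2.7.2), forms of 25 and 26 nt, continuing additions and reads of 29 nt or more were added after values had been seen.

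Named sequences are the 10 highest in mean RPM, the 5 highest per library, the 5 highest and 5 lowest ratios per comparison with a mean of at least 10 RPM, the 10 arms with most long reads, arms annotated at 25 nt or more and both lists. Printed ratios have exact conditional binomial intervals without a pseudocount, and shares have Wilson intervals (scipy 1.17.1, statsmodels 0.14.6). No count model was used. With 0 reads in a library, up to 3 reads are allowed by counting error, which is 0.0868 to 0.222 RPM. The code for extension classes, folds and intervals was checked on simulated data with counting error only, without the overlap class and without a pseudocount. This checks the code and not the reported values.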

Additional observations from a re-analysis of the deposited data

Results flagged for a closer look

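Of the 10 arms with most long reads, those whose long reads went opposite ways with age in the Ago1 and the Ago2 libraries, with both intervals away from no change, are given here. Each direction rests on 1 library per age and protein, and the difference between the proteins was not tested. In miR-10-5p the log2 ratio of 30 d over 3 d was higher with Ago2 than with Ago1 by 3.16 for the RPM of long reads and by 3.03 for their share of the arm. In miR-125-5p the RPM ratio was higher with Ago2 by 1.45, and in unnamed arm 1 by 1.30. The share of the arm was lower at 30 d with Ago1 in both of the last named arms, and with Ago2 the intervals at both ages overlapped in both. In miR-284-5p the share of the 26-nt form among forms of 25 and 26 nt changed by -22.8 percentage points with Ago2 relative to its change with Ago1.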

How the results depend on the processing

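No paired analysis was possible because each group holds 1 library, and no replicate could be left out. Values given once are means over the 4 libraries, and those of ratios and counts follow the order Ago2 against Ago1 at 3 d and at 30 d, then 30 d against 3 d with Ago1 and with Ago2. As reported, there were 1027 sequences and 19049.7 RPM, 43.4% of long reads had 26 nt or more, 30.4% began with U, 11.1% were extensions, as were 51.7% of the distinct sequences, and the log2 ratios were 3.98, 4.05, -0.53 and -0.46.

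With 24 nt or more, the RPM was 271113, with 2.88% at 26 nt or more, 10.2% first U and 9.64% extensions, and the ratios were 3.39, 3.90, -0.46 and 0.0391, the last with its sign changed. With 26 nt or more there were 667 sequences at 9933.27 RPM, with 36.7% first U and 41.6% extensions, the ratios were 4.58, 4.54, -0.94 and -0.98, and the length profile had no value.

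Leaving out all forms of miR-284-5p, chosen after seeing the data, gave 1243.8 RPM, 39.7% at 26 nt or more, 46.4% first U, 49.0263% extensions and ratios of -0.97, -0.92, -0.29 and -0.23, so both ratios between the proteins changed sign. Without the most abundant long sequence, 19.2% had 26 nt or more, 32.3% began with U and the ratios were 2.84, 3.41, -0.50 and 0.0660. Without the most abundant listed sequence in the total, the RPM was 34640.7 and the ratios 4.65, 4.76, -0.51 and -0.40. With reads of 20 to 24 nt as the total, the RPM was 20283, the ratios between proteins 4.04 and 4.14 and the age ratio with Ago2 -0.43. Summing repeated lines gave 3.99 at 3 d.

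With 10 reads or more there were 177 sequences, of which 69.9% were extensions, and with 1 RPM or more 96. Shorter partners of at least 1 RPM gave 11.6% of reads and 65.9% of sequences as extensions, of at least 100 RPM 9.995% and 36.03%, of at least 10 RPM in the same library 25.9% and 49.2%, and partners 10 times as abundant gave 10.5% of reads.

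Sequences at least 2-fold apart, 54, 55, 14 and 18 as reported, were 119, 125, 27 and 28 from 24 nt, 28, 24, 6 and 11 from 26 nt, 26, 22, 4 and 5 with a pseudocount of 10 RPM and 20, 19, 9 and 6 with a mean of at least 10 RPM.

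Arms with a higher and a lower share numbered 31 and 18, 37 and 15, 21 and 51, and 20 and 32. From 24 nt, the lower arms were 30 at 3 d and 31 at 30 d and the higher arms with age and Ago1 36, and from 26 nt the last were 11. The limits on arm reads were added after seeing the data. With 100 reads of the arm, 49 were higher and 33 lower at 3 d, 61 and 25 at 30 d, and 35 higher with age and Ago2. With 10000 reads, 13 were higher and 8 lower at 3 d, 16 higher at 30 d, and 6 higher and 17 lower with age and Ago2. With 1000 reads in all 4 libraries, 31 were lower with age and Ago1. With the arm's reads of 20 nt or more as the whole, also added after seeing the data, no count of higher or lower arms moved by over 1.5 times. The cause of these changes was not tested, beyond what each setting adds or leaves out. Depth limits long forms of 1 to 3 reads, as in miR-263a-3p and miR-1010-3p.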
